A study of Mus musculus with 12 samples.

Results

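Heat shock factor 1 and 9 heat shock proteins of mouse striatal cell lines are described here: Hsf1, Hspa1a, Hspa1b, Hspa8, Hsph1, Hsp90aa1, Dnajb1, Hspb1, Hspd1 and Hspe1. They were taken from the expression table by gene name, and each of the 10 names matched 1 of the 29428 genes in it. The table covers 12 libraries of poly(A) RNA, 3 in each of 4 groups, from STHdhQ7/Q7 and STHdhQ111/Q111 cells, immortalized lines of knock-in mice whose huntingtin carries 7 or 111 glutamines. The nontreated groups are called Q7-C and Q111-C. The groups Q7-T and Q111-T had received 100 ng/mL IFNγ together with 5 μg/mL LPS for 24 h. All groups were grown at 33 °C in medium with 10% FBS and under 5% CO2, so every group was kept below body temperature and none was given a heat shock. Each genotype is represented by 1 line, so genotype and line cannot be told apart. The study calls its replicates biological, but the labels do not say whether they came from separate cultures, so the p-values measure the spread between these libraries, which may be technical.

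Heat shock factor 1 is the main transcription factor of the heat shock response. When unfolded proteins build up it is released from chaperones, forms a trimer and binds inverted repeats of a short unit in the promoters of chaperone genes. The chaperones themselves have set roles: HSP70 proteins bind exposed stretches of client proteins, J-domain proteins bring them clients, HSP110 proteins exchange their nucleotide, HSP90 takes over clients at a late stage, small heat shock proteins hold unfolded proteins, and HSP60 with HSP10 forms the folding chamber of mitochondria. These families have been studied in Huntington's disease because expanded huntingtin aggregates.

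The promoters show which members carry the recognition motif of HSF1. Windows from 250 bases before to 50 bases after the start (RefSeq, GRCm38.p6) were found for 7 of the 10 members, and not for Hsf1, Hspa8 and Hsp90aa1. The pair of facing units was searched as GAANNTTC or TTCNNGAA. Each form is its own reverse complement, so both strands are covered, and pairs that share a unit were counted separately. Of 32851 windows of this length, 15.1% hold a pair and 0.603% hold 3 alternating units. The 7 members have 10 windows, of which 7 hold a pair and 4 hold 3 alternating units. Counted by gene, with any of its windows, 6 of the 7 members have a pair, beside 17% of the 27025 genes with a window. Hsph1, Hspd1 and Hspe1 have at least 3 alternating units, beside 0.662%. The genes are not all separate sites, as Hspd1 shares its pairs with Hspe1, and Hspa1a and Hspa1b are near-identical. The stretches of the members that the results turn on are printed 5′ to 3′ on the strand of the gene, with the pairs in capitals.
Hspe1 (chr1:55088053-55088082, plus strand, bases -95 to -66 from the start): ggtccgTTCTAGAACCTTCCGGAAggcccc
Hsph1 (chr5:149636287-149636308, minus strand, bases 29 to 50 after the start): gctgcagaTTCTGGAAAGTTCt
Hspb1 (chr5:135887769-135887918, plus strand, bases -150 to -1 from the start): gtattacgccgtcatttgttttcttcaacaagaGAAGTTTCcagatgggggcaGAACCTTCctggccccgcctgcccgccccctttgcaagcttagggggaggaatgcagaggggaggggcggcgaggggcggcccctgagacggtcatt
Hspa1a (chr17:34972157-34972306, minus strand, bases -150 to -1 from the start): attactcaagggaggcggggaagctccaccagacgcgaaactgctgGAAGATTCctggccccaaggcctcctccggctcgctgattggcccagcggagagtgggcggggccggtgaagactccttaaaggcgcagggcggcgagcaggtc
Hspa1b (chr17:34959239-34959388, minus strand, bases -150 to -1 from the start): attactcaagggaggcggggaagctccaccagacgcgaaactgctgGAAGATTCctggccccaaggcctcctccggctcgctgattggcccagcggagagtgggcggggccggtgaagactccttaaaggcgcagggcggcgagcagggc
Dnajb1 (chr8:83608025-83608174, plus strand, bases -150 to -1 from the start): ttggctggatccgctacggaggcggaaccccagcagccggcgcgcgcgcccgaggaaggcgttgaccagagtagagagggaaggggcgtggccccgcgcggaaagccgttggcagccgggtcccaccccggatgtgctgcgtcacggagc

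The Hspe1 stretch is shown because it lies in windows of 2 members. It overlaps an annotated exon, and the other window of Hspd1 (chr1:55088194-55088493) holds 0 pairs. Hspd1 and Hspe1 lie head to head on chromosome 1 and overlap by 112 bases, and the 3 pairs of the Hspe1 stretch are also found at positions -144, -139 and -134 from the second RefSeq start of Hspd1. The stretches of Hspa1a and Hspa1b are shown because these genes can hardly be told apart: 149 of the 150 bases (99.3%) are identical, and 99.5% of the coding bases match. The stretch of Dnajb1 is shown because this gene had the clearest difference described below. These letters are in none of the windows of Dnajb1, which says nothing of the factor's binding. Among the 73 other chaperone genes of the lists below that had a window, 17 (23.3%) held a pair and 2, Chordc1 and Dnajb6, held 3 alternating units.

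A library held between 57505990 and 96417834 estimated counts in total, and each member had at least 832 estimated counts in every library. All 10 members passed the filter of 0.5 TPM in 3 libraries, as did 16127 genes in all. The 5 interferon and NF-κB response genes used as a check of the treatment all rose in both lines, among them Nos2 by 6.31 in Q7 and 8.90 in Q111 cells (log2 fold change). Of 6 neuronal markers 4 were in the table. They summed to 22.2 to 27.5 TPM in Q7-C, 58.5 to 86.3 TPM in Q7-T, 8.71 to 10.995 TPM in Q111-C and 28.9 to 32.4 TPM in Q111-T, with Tubb3 at means of 16.9, 74.6, 3.91 and 24.7 TPM and Map2 at 7.93, 2.13, 5.90 and 5.61 TPM, while Snap25 and Syt1 did not exceed 0.025 TPM in any library. The 5 astrocyte markers summed to 1.05 to 1.85 TPM in Q7 libraries, 8.69 to 10.8 TPM in Q111-C and 4.05 to 5.24 TPM in Q111-T, with Slc1a3 at means of 0.902, 0.935, 9.86 and 2.75 TPM and Aldh1l1 at 0.364, 0.416, 0.0384 and 1.32 TPM in the same order of groups. Of 6 markers of striatal projection neurons 3 were in the table and summed to 0.204 to 0.794, 0.0960 to 0.708, 5.07 to 6.68 and 2.09 to 2.33 TPM, and 4 of 6 markers of microglia and macrophages did not exceed 0.479 TPM in sum. The 6 mesenchymal markers summed to 2747 to 3358 TPM in Q7-C, 1851 to 2286 TPM in Q7-T, 4261 to 4475 TPM in Q111-C and 1710.0 to 2040.4 TPM in Q111-T, and the part of these markers in the results was not tested. In bulk RNA, fewer cells of a kind and less RNA per cell cannot be told apart.

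Libraries of the same group differed in the balance of short against long transcripts, which moved with nearly all members. Genes under 1500 bases stood 0.62, 0.93 and 0.10 above genes over 4000 bases (log2, relative to the mean of the 12 libraries) in replicate 1 of Q7-C, replicate 2 of Q7-T and replicate 2 of Q111-T. The other 9 libraries lay between -0.43 and -0.00. In these 3 libraries Hspe1 and Hspb1, whose transcripts of 964 and 930 bases are short, were the highest of their group. The longer Hspa1a, Hspa1b, Hsph1, Hsp90aa1, Dnajb1 and Hspd1 were the lowest of their group there. Values for the other 9 libraries are therefore given beside the main differences of the members, and summarized for other genes, a choice made after seeing the data and called "without the 3 libraries" below.

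**Figure D1:**
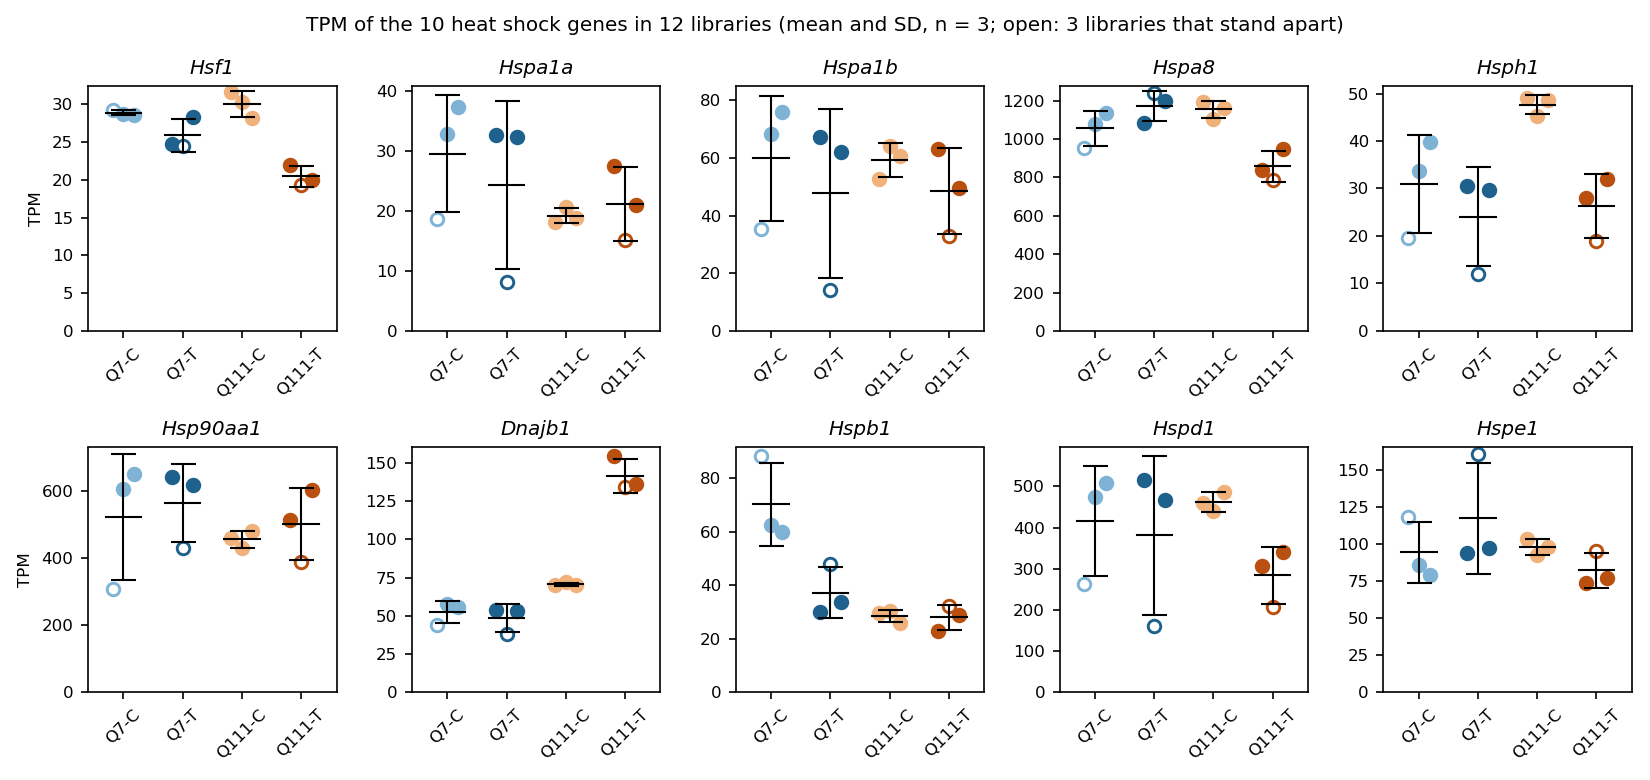
TPM of each member (vertical axes, starting at 0) in Q7-C, Q7-T, Q111-C and Q111-T, with 1 circle per library and the mean with its SD (n = 3). Open circles are replicate 1 of Q7-C, replicate 2 of Q7-T and replicate 2 of Q111-T, and Dnajb1 lies between 134 and 154 TPM in Q111-T and does not exceed 71.9 TPM in any other library.

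Among the members, 5 differed between the treated lines and 1 between the nontreated lines, and 2 changed with treatment in Q111 cells. The test was edgeR's quasi-likelihood test on the estimated counts, and a call is an adjusted p under 0.05 (Benjamini-Hochberg over 16127 genes). In Q111-C vs. Q7-C, 0 members were higher and 1 was lower, where 11.1% and 11.6% of all genes were. At an unadjusted p under 0.05, 3 members differed (33.0% of all genes), and DESeq2 called 3 (28.5%) and limma on log2(TPM + 0.5) 1 (22.4%). In Q111-T vs. Q7-T, 1 member was higher and 4 were lower (19.8% and 18.7% of all genes), and DESeq2 called 7 (44.4%) and limma 2 (36.1%). For Q7-T vs. Q7-C, edgeR called 0 members (3.61% of all genes were higher and 1.74% lower), 0 had an unadjusted p under 0.05 (15.4%), DESeq2 called 0 (9.36%), and limma called 1 (4.27%). In Q111-T vs. Q111-C, 1 member was higher and 1 was lower (11.3% and 7.33% of all genes), and DESeq2 called 3 (24.3%) and limma 2 (17.4%). The interaction, which tests whether the responses of the lines differ, called 1 member as higher and 0 as lower (3.94% and 1.75% of all genes), and DESeq2 and limma called 1 each (12.1% and 5.82%). Unadjusted p-values under 0.05 came to 7 members between the treated lines (47.7% of all genes) and 4 with treatment of Q111 cells (29.7%). In the interaction they came to 2 (19.8%). The comparisons share groups, so their counts are not independent.

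Without the 3 libraries more members were called, as were more genes in general. Between the lines the calls came to 5 members in nontreated cells (43.5% of all genes) and 9 in treated cells (54.0%), for treatment to 1 in Q7 cells (13.9%) and 8 in Q111 cells (42.5%), and in the interaction to 7 (27.8%). With all 12 libraries, the median log2 fold change of the 10 members was -0.29 between the nontreated lines and -0.66 between the treated lines, beside -0.02 and -0.03 over all genes. It was 0.02 for treatment of Q7 cells, -0.17 for treatment of Q111 cells and -0.30 in the interaction, beside 0.00, -0.00 and -0.02 over all genes. The medians of the members without the 3 libraries were -0.18, -0.54, -0.00, -0.22 and -0.20 in the same order. On the log2(TPM + 0.5) scale the median of all genes shifted by 0.27 between the nontreated and by 0.34 between the treated lines, and by -0.16 and -0.10 with treatment of Q7 and Q111 cells, so TPM values set a member higher in Q111 cells than the test does. The TPM of the compared groups did not overlap for 3 members between the nontreated lines (51.4% of all genes), 3 between the treated lines (46.3%), 2 with treatment of Q7 cells (14.4%) and 5 with treatment of Q111 cells (49.6%). A two-sided exact permutation test of 3 libraries against 3 cannot give a p below 0.1, so it cannot call a single member.

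**Figure D2:**
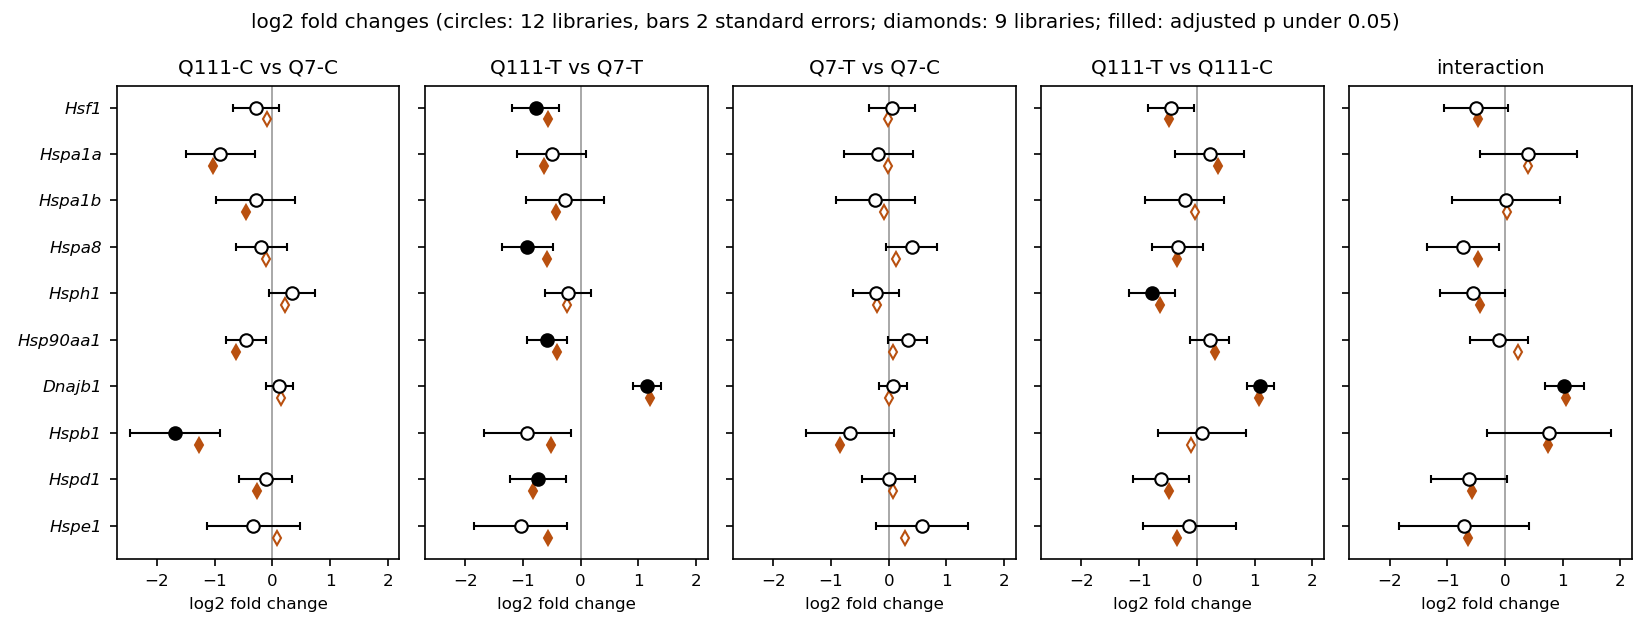
log2 fold change of each member (horizontal axes) in 4 comparisons and in the interaction. Black circles are from all 12 libraries with bars of 2 standard errors, orange diamonds are from the 9 libraries left after removing the 3 that stand apart, and filled symbols have an adjusted p under 0.05, with Dnajb1 at 1.15, 1.10 and 1.03 in the comparisons that involve Q111-T.

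The regulator Hsf1 (ENSMUSG00000022556, GRCm38 chr15:76477422-76501913, plus strand) was lowest in treated Q111 cells. Its TPM was 29.3, 28.8 and 28.7 in nontreated Q7 cells, 24.8, 24.5 and 28.4 in treated Q7 cells, 31.6, 30.4 and 28.2 in nontreated Q111 cells, and 22.0, 19.3 and 20.03 in treated Q111 cells. The treated Q111 libraries lay below all others, and the nontreated groups overlapped. Hsf1 was lower in Q111-T than in treated Q7 cells (log2 fold change -0.78, standard error 0.20, adjusted p = 0.00983), and the call held with each library left out (-0.94 to -0.55) and without the 3 libraries (-0.56, adjusted p = 0.00215). On the log2(TPM + 0.5) scale this difference was -0.33 and was not called by limma (adjusted p = 0.0815). With treatment of Q111 cells Hsf1 stood at -0.45 ± 0.20 (standard error, adjusted p = 0.152). It passed without the 3 libraries (-0.49, adjusted p = 0.00438) and without replicate 2 of Q7-T (-0.46, adjusted p = 0.0402). It was called in 7 of 26 fits that change the tool, scaling, filter or samples or leave out 1 library, among them limma on log2(TPM + 0.5) (-0.55, adjusted p = 0.0177), total counts (-0.53, adjusted p = 0.0293) and a fit of these 2 groups only (-0.45, adjusted p = 0.00886). Between the nontreated lines Hsf1 stood at -0.28 and for treatment of Q7 cells at 0.05, with intervals of 2 standard errors from -0.68 to 0.12 and from -0.35 to 0.44.

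Hspa8 (ENSMUSG00000015656, chr9:40800984-40810087, plus strand), the constitutive HSP70 of the cytosol, had the highest TPM of the members. Its TPM was 953, 1081 and 1134 in nontreated Q7 cells, 1084, 1238 and 1197 in treated Q7 cells, 1194, 1106 and 1164 in nontreated Q111 cells, and 839, 789 and 947 in treated Q111 cells. The treated Q111 libraries again lay below all others, while the other groups overlapped. Hspa8 was lower in Q111-T vs. Q7-T (log2 fold change -0.92, standard error 0.22, adjusted p = 0.00655), a call that held with each library left out, although the value was -0.59 without replicate 2 of Q7-T and -0.58 without the 3 libraries. On quantile-normalized TPM it was -0.30 and was not called by limma (adjusted p = 0.184). For treatment of Q111 cells Hspa8 had -0.33 (standard error 0.22, adjusted p = 0.368), or -0.34 without the 3 libraries (adjusted p = 0.0148). It stood at -0.19 between the nontreated lines (adjusted p = 0.594) and at 0.40 for treatment of Q7 cells (adjusted p = 0.436). The gene overlaps 3 small nucleolar RNA genes on the same strand (Snord14c, Snord14d and Snord14e).

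The inducible HSP70 genes Hspa1a (ENSMUSG00000091971, chr17:34969190-34972156, minus strand) and Hspa1b (ENSMUSG00000090877, chr17:34956436-34959238, minus strand) had far lower TPM than Hspa8, and neither was among the calls counted above for all 12 libraries by edgeR. Hspa1a had 18.7, 32.8 and 37.3 in nontreated Q7 cells, 32.7, 8.18 and 32.3 in treated Q7 cells, 18.2, 20.7 and 18.9 in nontreated Q111 cells, and 27.5, 15.2 and 21.1 in treated Q111 cells (TPM). Hspa1b had 35.2, 68.3 and 76.1 in nontreated Q7 cells, 67.2, 14.1 and 62.1 in treated Q7 cells, 52.7, 64.3 and 60.6 in nontreated Q111 cells, and 62.9, 33.0 and 49.4 in treated Q111 cells (TPM). Neighbouring groups in the order of their means overlapped for both genes.
Between the nontreated lines, Hspa1a had a log2 fold change of -0.90 (adjusted p = 0.051, standard error 0.30). It passed without replicate 1 of Q7-C (-1.03, adjusted p = 0.0491), without replicate 2 of Q7-T (-0.89, adjusted p = 0.00261) and without the 3 libraries (-1.03, adjusted p = 7.04e-05). It was also called by DESeq2 (-0.88, adjusted p = 0.0198), with these 2 groups only (-0.89, adjusted p = 0.00608) and with counts divided by 4 (-0.90, adjusted p = 0.0476), whereas limma on log2(TPM + 0.5) gave -0.55 (adjusted p = 0.445). Hspa1b stood at -0.29 there (adjusted p = 0.61), or -0.46 without the 3 libraries (adjusted p = 0.00757) and -0.52 with the balance of short and long genes as a covariate (adjusted p = 0.0211). Between the treated lines the values were -0.50 for Hspa1a and -0.27 for Hspa1b (adjusted p = 0.209 and 0.553). Without replicate 2 of Q7-T they were -0.81 and -0.61 (adjusted p = 0.00669 and 0.0436), and without the 3 libraries -0.64 and -0.42 (adjusted p = 0.00204 and 0.0146). With the covariate they were -0.89 and -0.73 (adjusted p = 0.0013 and 0.00424).
With treatment, Hspa1a and Hspa1b had -0.18 and -0.23 in Q7 cells (adjusted p = 0.849 and 0.82) and 0.22 and -0.21 in Q111 cells (adjusted p = 0.701 and 0.766). The intervals of 2 standard errors reached from -0.77 to 0.42 and from -0.90 to 0.44 in Q7 cells, and from -0.37 to 0.82 and from -0.88 to 0.46 in Q111 cells. Without the 3 libraries, Hspa1a was higher in treated than in nontreated Q111 cells (0.37, adjusted p = 0.0285), and Hspa1b had -0.04 (adjusted p = 0.799). The ratio of Hspa1b to Hspa1a TPM was 1.72 to 2.08 in the 6 Q7 libraries, 2.90, 3.10 and 3.21 in Q111-C, and 2.29, 2.17 and 2.35 in Q111-T. Since the copies share nearly all coding bases, the split of reads between them is uncertain. With their counts summed, Hspa1a and Hspa1b had -0.47 between the nontreated lines (adjusted p = 0.353), and the counts of members called were those given above.

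Dnajb1 (ENSMUSG00000005483, chr8:83608193-83612653, plus strand), the J-domain protein that stimulates the ATPase of cytosolic HSP70, was the one member that rose with treatment over all 12 libraries, and it rose in Q111 cells. Its TPM was 44.1, 57.7 and 55.9 in nontreated Q7 cells, 54.1, 38.0 and 53.5 in treated Q7 cells, 70.2, 71.9 and 70.3 in nontreated Q111 cells, and 154, 134 and 136 in treated Q111 cells. The treated Q111 libraries lay above all others, with a mean of 142 ± 11.1 TPM against 70.8 ± 0.925 TPM in nontreated Q111 cells (SD, n = 3), whereas the Q7 groups overlapped. This was a 2.15-fold rise, or 1.10 ± 0.12 on the log2 scale (standard error, adjusted p = 6.79e-05).
For treatment of Q7 cells, Dnajb1 stood at 0.07 (adjusted p = 0.851), with an interval of 2 standard errors from -0.17 to 0.31. The interaction, the test of the difference between these responses, was 1.03 (adjusted p = 0.00519, standard error 0.17). Between the treated lines Dnajb1 was 2.21-fold higher in Q111 cells (log2 fold change 1.15, adjusted p = 3.31e-05). In nontreated cells the lines differed by 0.12 (adjusted p = 0.564), although the TPM of these groups did not overlap. All 3 calls held under every alternative setting and with each library left out, between 0.99 and 1.15 for treatment of Q111 cells, between 1.10 and 1.56 for the treated lines and between 0.96 and 1.12 for the interaction. Without the 3 libraries these values were 1.07, 1.21 and 1.06.

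Hsph1 (ENSMUSG00000029657, chr5:149614287-149636376, minus strand), an HSP110 protein that recharges HSP70 with ATP, fell with treatment in Q111 cells. Its TPM was 19.6, 33.6 and 39.8 in nontreated Q7 cells, 30.5, 12.1 and 29.7 in treated Q7 cells, 49.0, 45.3 and 48.7 in nontreated Q111 cells, and 28.1, 18.9 and 32.0 in treated Q111 cells. The nontreated Q111 libraries lay above all others, and the remaining groups overlapped. On the log2 scale it changed by -0.78 ± 0.20 (standard error, adjusted p = 0.0192). The call was lost, with values between -0.81 and -0.68, when replicate 1 or 3 of Q111-C or replicate 1 or 2 of Q111-T was left out (adjusted p = 0.0626, 0.0534, 0.0507 and 0.0681). It was also lost on the log2(TPM + 0.5) scale (-0.88, adjusted p = 0.141, limma), and it held without the 3 libraries (-0.64, adjusted p = 4.36e-04). For treatment of Q7 cells Hsph1 stood at -0.22 (adjusted p = 0.704). The interaction was -0.56 (adjusted p = 0.304), or -0.44 without the 3 libraries (adjusted p = 0.0374). Between the lines it stood at 0.34 in nontreated and at -0.22 in treated cells (adjusted p = 0.268 and 0.419), and the latter value was 0.21 on the log2(TPM + 0.5) scale and -0.51 with the covariate (adjusted p = 0.00129), which also gave -0.74 for the interaction (adjusted p = 0.00211).

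Hsp90aa1 (ENSMUSG00000021270, chr12:110690605-110702728, minus strand), the inducible cytosolic HSP90, overlapped between neighbouring groups. Its TPM was 307, 606 and 651 in nontreated Q7 cells, 640.2, 429 and 617 in treated Q7 cells, 459, 429.5 and 480.0 in nontreated Q111 cells, and 512, 388 and 602 in treated Q111 cells. It was called lower in Q111-T vs. Q7-T (log2 fold change -0.58, standard error 0.17, adjusted p = 0.0223), but not without replicate 1 or replicate 2 of Q111-T (-0.54 and -0.48, adjusted p = 0.0748 and 0.0767). It was -0.40 without the 3 libraries (adjusted p = 0.00549). On the log2(TPM + 0.5) scale the difference was -0.17 (adjusted p = 0.675, limma). In nontreated cells Hsp90aa1 stood at -0.46 (adjusted p = 0.082), and at -0.63 both without replicate 1 of Q7-C (adjusted p = 0.0116) and without the 3 libraries (adjusted p = 2.44e-04). With treatment it stood at 0.33 in Q7 and 0.22 in Q111 cells (adjusted p = 0.41 and 0.469), and at 0.08 and 0.32 without the 3 libraries (adjusted p = 0.631 and 0.0141).

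Hspb1 (ENSMUSG00000004951, chr5:135887919-135889563, plus strand), the small heat shock protein HSP25 that binds unfolded proteins without ATP, separated the nontreated lines. Its TPM was 88.3, 62.5 and 60.1 in nontreated Q7 cells, 30.01, 48.0 and 33.9 in treated Q7 cells, 29.5, 30.3 and 25.9 in nontreated Q111 cells, and 23.1, 32.1 and 29.1 in treated Q111 cells. Each nontreated Q7 library lay above every other library, and the other 3 groups overlapped. Hspb1 was 3.20-fold lower in Q111-C vs. Q7-C (log2 fold change -1.68, standard error 0.39, adjusted p = 0.00859), and it was called in all 26 fits with another setting or 1 library left out, between -1.83 and -1.25. It was -1.27 without the 3 libraries (adjusted p = 5.17e-05).
For treatment of Q7 cells the TPM of Hspb1 did not overlap, but its log2 fold change of -0.67 was not called by edgeR (adjusted p = 0.471, standard error 0.38). It was called in 3 of 26 fits with another setting or 1 library left out, limma on log2(TPM + 0.5) among them. It was -0.26 without replicate 1 of Q7-C (adjusted p = 0.707), -1.23 without replicate 2 of Q7-T (adjusted p = 0.0421) and -0.85 without the 3 libraries (adjusted p = 0.00461). For treatment of Q111 cells it stood at 0.09 (adjusted p = 0.924). The difference between these responses was 0.76 (adjusted p = 0.481), and 0.75 without the 3 libraries (adjusted p = 0.0229). Between the treated lines Hspb1 stood at -0.92 (adjusted p = 0.0799). It was called by DESeq2, and passed without replicate 1 of Q7-T (-1.17, adjusted p = 0.0344) and without the 3 libraries (-0.52, adjusted p = 0.0149). It was -0.35 without replicate 2 of Q7-T (adjusted p = 0.401) and -0.17 with the balance of short and long genes as a covariate (adjusted p = 0.353). The annotation holds 1 pseudogene of Hspb1, which is also in the table, so reads may be shared.

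Hspd1 (ENSMUSG00000025980, chr1:55077835-55088243, minus strand) and Hspe1 (ENSMUSG00000073676, chr1:55088132-55091307, plus strand) encode HSP60 and HSP10, the chamber and the lid of the mitochondrial chaperonin, and lie head to head. Hspd1 had 263, 475 and 509 in nontreated Q7 cells, 515, 160.2 and 468 in treated Q7 cells, 459, 441 and 487 in nontreated Q111 cells, and 306, 207 and 340.3 in treated Q111 cells (TPM). Hspe1 had 118, 86.3 and 79.4 in nontreated Q7 cells, 94.1, 161 and 97.6 in treated Q7 cells, 103, 93.1 and 98.1 in nontreated Q111 cells, and 74.1, 95.8 and 77.5 in treated Q111 cells (TPM). In the 3 libraries with most short transcripts Hspd1 was the lowest and Hspe1 the highest of the group. The ratio of Hspd1 to Hspe1 TPM was 2.22, 0.995 and 2.16 in those libraries and 4.13 to 6.41 in the other 9.
Hspd1 was lower in Q111-T vs. Q7-T (log2 fold change -0.74, standard error 0.24, adjusted p = 0.0282), although the TPM of the groups overlapped. The call was lost without replicate 1 or 3 of Q7-T (-0.58 and -0.62, adjusted p = 0.0882 and 0.0883), without replicate 1 or 2 of Q111-T (-0.74 and -0.61, adjusted p = 0.074 and 0.1), and on the log2(TPM + 0.5) scale (-0.28, adjusted p = 0.624, limma). It was -0.83 without the 3 libraries (adjusted p = 2.9e-05). For treatment of Q111 cells, where TPM did not overlap, it stood at -0.62 (adjusted p = 0.0976). It passed without replicate 2 of Q7-T (-0.62, adjusted p = 0.0117) and without the 3 libraries (-0.49, adjusted p = 6.80e-04). The interaction for Hspd1 was -0.62 (adjusted p = 0.334), or -0.87 without replicate 2 of Q7-T (adjusted p = 0.0402) and -0.57 without the 3 libraries (adjusted p = 0.00533).
Hspe1 was not called by edgeR with all 12 libraries. It stood at -1.04 between the treated lines (adjusted p = 0.0612, standard error 0.40), where DESeq2 called it (-1.04, adjusted p = 0.0298), and passed without replicate 1 of Q7-C (-1.04, adjusted p = 0.0418), without replicate 1 or 3 of Q7-T (-1.30 and -1.26, adjusted p = 0.0273 and 0.0397) and without the 3 libraries (-0.56, adjusted p = 0.00113). It was -0.37 without replicate 2 of Q7-T (adjusted p = 0.341) and -0.20 with the covariate (adjusted p = 0.116). For treatment of Q111 cells it stood at -0.13, and at -0.34 without the 3 libraries (adjusted p = 0.89 and 0.0141). Between the nontreated lines the values were -0.12 for Hspd1 and -0.33 for Hspe1 (adjusted p = 0.768 and 0.629), and for treatment of Q7 cells -0.00 and 0.58 (adjusted p = 1.0 and 0.576). Without the 3 libraries Hspd1 was also called between the nontreated lines (-0.26, adjusted p = 0.0186), as were Hsf1, Hspa8 and Hspe1 in the interaction (-0.46, -0.47 and -0.64, adjusted p = 0.0492, 0.0305 and 0.0083). The covariate also gave calls between the nontreated lines for Hspa1a, Hsp90aa1 and Hspd1 (-1.09, -0.50 and -0.27, adjusted p = 2.35e-04, 0.0163 and 0.0441). With treatment of Q111 cells it did so for Hsf1 and Hspd1 (-0.41 and -0.69, adjusted p = 0.00337 and 1.92e-04), with treatment of Q7 cells for Hspb1 (-1.0, adjusted p = 2.56e-04), and in the interaction for Hspb1 and Hspd1 (1.16 and -0.80, adjusted p = 0.00113 and 0.0022). The annotation holds 5 pseudogenes of Hspd1 and 6 of Hspe1, of which 1 each is in the table, and the genes overlap on opposite strands.

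**Figure D3:**
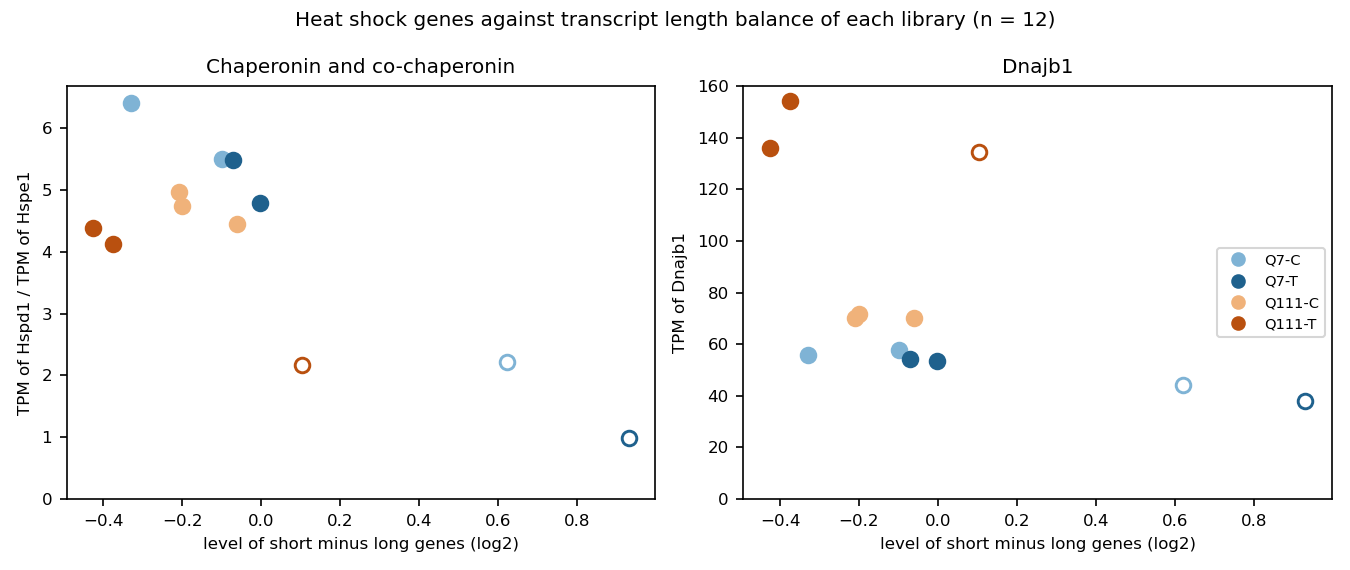
Left, ratio of Hspd1 to Hspe1 TPM, and right, TPM of Dnajb1, each against the level of short minus long genes of the library (log2, horizontal axes), with 1 circle per library and open circles for the 3 libraries that stand apart. The ratio is 2.22 or less in these 3 libraries and 4.13 or more in the others, while Dnajb1 is 134 TPM in the open Q111-T library and 154 and 136 TPM in the other Q111-T libraries.

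Other chaperone genes were followed in 9 lists with 89 genes, 85 of which were tested. For treatment of Q7 cells 2 of the 85 were higher and 0 lower, and for treatment of Q111 cells 5 were higher and 10 lower, or 4 and 6, and 11 and 35, without the 3 libraries. The interaction called 2 higher and 3 lower, or 7 and 26 without the 3 libraries. Of the 85, 3 were higher and 14 lower between the nontreated lines, and between the treated lines 7 and 43 (8 and 34, and 11 and 48, without the 3 libraries). Over all genes, the shares higher and lower without the 3 libraries were 6.61% and 7.29% for treatment of Q7 cells, 22.2% and 20.3% for treatment of Q111 cells, 15.7% and 12.1% in the interaction, 21.2% and 22.3% between the nontreated lines and 29.0% and 25.0% between the treated lines. With all 12 libraries they were 3.61% and 1.74%, 11.3% and 7.33%, 3.94% and 1.75%, 11.1% and 11.6%, and 19.8% and 18.7% in the same order. Of the 54 calls of the 32 list genes picked out for naming, Hsf4 included, 53 held without the 3 libraries. These calls were picked with all 12 libraries, to which the 9 left belong, so the count is a description only. The log2 value shrank by over 1.5 times for Stub1 and Hspbp1 between the treated lines (-1.0 and -0.79) and for Pfdn6 and Sdf2l1 between the nontreated lines (-0.84 and -0.57).

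J-domain proteins, the family of Dnajb1, held 4 of the 5 genes that rose with treatment of Q111 cells, and 1 of the 10 fell. Dnajb5 rose by 1.17 (adjusted p = 1.78e-04) and Dnajb6, which keeps polyglutamine proteins from aggregating, by 0.97 (adjusted p = 1.57e-04). The mean of Dnajb6 was 47.1 ± 1.69 TPM in nontreated and 86.2 ± 9.39 TPM in treated Q111 cells (SD, n = 3). Dnaja4 rose by 0.93 and Dnajb4 by 0.68, and Dnajb14, which sits in the ER membrane, fell (-0.86, adjusted p = 0.00321). In treated Q7 cells, Dnajb5 and Dnajb6 rose by 0.63 and 0.46 (adjusted p = 0.0286 and 0.0471), calls that were lost in 7 and 10 of the 12 fits with 1 library left out. The interaction was 1.12 for Dnaja4 and 1.02 for Dnajb4 (adjusted p = 0.00536 and 0.0234), and 0 and 7 of these fits lost it. Dnaja1, a relative in the cytosol with group means between 58.4 and 80.2 TPM, had adjusted p-values of 0.177 or more by edgeR with all 12 libraries. With the covariate they were 0.0223 between the treated lines and 0.0399 for treatment of Q111 cells. Without the 3 libraries Dnaja1 had -0.36 and -0.28 there (adjusted p = 0.00331 and 0.0101), and -0.44 in the interaction (adjusted p = 0.0125).

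The HSP90 machinery had most of its calls between the treated lines, where 10 of 13 genes were lower in Q111 cells (median -0.71). With treatment of Q111 cells 4 fell (median -0.31). In treated Q7 cells edgeR and DESeq2 called 0 with all 12 libraries, and 0 had an unadjusted p under 0.05. Without the 3 libraries edgeR called 1 as higher and 1 as lower there. Ahsa1, which activates the ATPase of HSP90, went from 53.8 ± 2.74 to 28.7 ± 0.816 TPM in Q111 cells (SD, n = 3), a log2 fold change of -0.80 (adjusted p = 0.0127). Fkbp4, an immunophilin of steroid receptor complexes, went from 169 ± 6.91 to 91.2 ± 12.2 TPM (-0.79, adjusted p = 0.00751). The interaction was -1.12 for Ahsa1 and -1.05 for Fkbp4 (adjusted p = 0.0344 and 0.0292), and each was lost in 8 of 12 fits with 1 library left out. Hsp90ab1, the constitutive partner of Hsp90aa1, had 2334, 2438 and 2536 in nontreated Q7 cells, 2906, 1255 and 2764 in treated Q7 cells, 1804, 1795 and 1772 in nontreated Q111 cells, and 1496, 1128 and 1437 in treated Q111 cells (TPM). It was lower in Q111-C vs. Q7-C (-0.78, adjusted p = 0.00543) and in Q111-T vs. Q7-T (-1.11, adjusted p = 3.86e-04), each called in 22 of 26 fits with another setting or 1 library left out, with values down to -0.20 and -0.46. Ptges3, the cochaperone p23, was lower between the nontreated lines (-0.78, adjusted p = 0.00984).

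Of the 14 TRiC and prefoldin genes, which fold actin and tubulin, 9 were lower between the treated lines, led by Pfdn6 and then Cct5 (-1.46 for Cct5), and 3 between the nontreated lines, led by Pfdn6 and Cct2 (-1.34 and -0.58), of which Pfdn6 was lost in 8 of 12 fits with 1 library left out. With treatment of Q111 cells 3 fell, among them Cct5 and Cct6a (-0.67 and -0.65, adjusted p = 0.0329 and 0.00946), lost in 6 and 0 of these fits. In treated Q7 cells edgeR and DESeq2 called 0, and 2 had an unadjusted p under 0.05 (15.4% of all genes). The interaction for Cct5 was -1.08 (adjusted p = 0.0418), lost in 8 of 12 fits with 1 library left out. Of 9 HSP70 cochaperones, 5 were lower between the treated lines, led by the ubiquitin ligase Stub1 and the exchange factor Hspbp1 (-1.65 and -1.20). Bag2 fell with treatment of Q111 cells (-0.44, adjusted p = 0.0488), lost in 9 of 12 such fits. Before treatment, Bag5 and Bag2 were lower in Q111 cells (-0.81 and -0.48, lost in 0 and 7 of 12 fits) and Bag3, an autophagy adaptor, was higher (0.44, adjusted p = 0.0434, lost in 6 of 12 fits). Of 7 HSP70 and HSP110 relatives, 3 were lower between the treated lines, led by Hspa12b and Hspa1l (-1.14 and -0.97), lost in 1 and 10 of 12 fits, with Hspa12b also lost without the 3 libraries (-0.93, adjusted p = 0.0566), and Hspa12b fell with treatment of Q111 cells (-1.20, adjusted p = 0.0199, lost in 3 of 12 fits).

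Among small heat shock proteins, the family of Hspb1, 3 of 6 tested genes were lower in Q111 cells both before and after treatment: Cryab, Hspb6 and Hspb8. Cryab, or αB-crystallin, had means of 299.8 ± 70.9 TPM in Q7-C, 207 ± 34.0 TPM in Q7-T, 41.7 ± 4.21 TPM in Q111-C and 87.1 ± 8.72 TPM in Q111-T (SD, n = 3). Its log2 fold change was -3.23 between the nontreated lines and -1.74 between the treated lines (adjusted p = 7.50e-05 and 0.0026). It rose with treatment of Q111 cells (1.17, adjusted p = 0.0359), a call lost in 6 of 12 fits with 1 library left out. Hspb6 had -1.74 and -1.94 between the lines. In the HSF family, Hsf4 had means of 0.395 ± 0.157 TPM in Q7-C and 0.258 ± 0.201 TPM in Q7-T against 9.83 ± 1.52 TPM in Q111-C and 13.1 ± 1.05 TPM in Q111-T, and passed the filter through the Q111 groups, so its difference between the lines, counted above among the higher genes, is a description only. Hsf2, a factor that forms trimers with HSF1, had group means between 4.89 and 7.66 TPM and was not called in any comparison.

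Of 13 mitochondrial chaperones and proteases, Spg7 was higher (0.75) and Clpp and Lonp1 were lower (-1.22 and -0.96) in nontreated Q111 cells. The call of Clpp was lost in 4 of 12 fits with 1 library left out. Genes of the mitochondrial genome took 5.39% to 7.21% of the counts in Q7 libraries, and 3.17% to 3.65% in Q111 libraries except replicate 2 of Q111-T (5.77%), and the part of this share in the results was not tested. Between the treated lines, Spg7 and Yme1l1 were higher (0.78 and 0.72) and 7 were lower, led by the proteases Clpp and Htra2 (-2.05 and -0.93). Hspa9, the mitochondrial HSP70 that brings proteins to HSP60, was among the 7 (-0.60, adjusted p = 0.0253, lost in 4 of 12 fits with 1 library left out), with 213, 419.9 and 442 in nontreated Q7 cells, 406, 184 and 377 in treated Q7 cells, 347, 337 and 352 in nontreated Q111 cells, and 304, 196 and 319 in treated Q111 cells (TPM). For treatment, edgeR and DESeq2 called 0 of these chaperones and proteases in either line with all 12 libraries. In each line 1 had an unadjusted p under 0.05 (15.4% of all genes in Q7 and 29.7% in Q111 cells). Without the 3 libraries edgeR called 1 as higher in Q7 cells, and 1 as higher and 3 as lower in Q111 cells. Of 10 ER chaperones, 2 were lower between the nontreated lines (Sdf2l1 and Hspa5, -0.90 and -0.63, lost in 3 and 5 of 12 fits) and 5 between the treated lines, led by Sdf2l1 and Hyou1 (-0.78 and -0.74, lost in 4 and 3 of 12 fits). With all 12 libraries, edgeR called 0 ER chaperones for treatment of either line, and DESeq2 called 0 in Q7 and 1 in Q111 cells. An unadjusted p under 0.05 was reached by 0 in Q7 and 2 in Q111 cells (15.4% and 29.7% of all genes). Without the 3 libraries, edgeR called 1 as lower in Q7 cells, and 1 as higher and 3 as lower in Q111 cells.

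**Figure D4:**
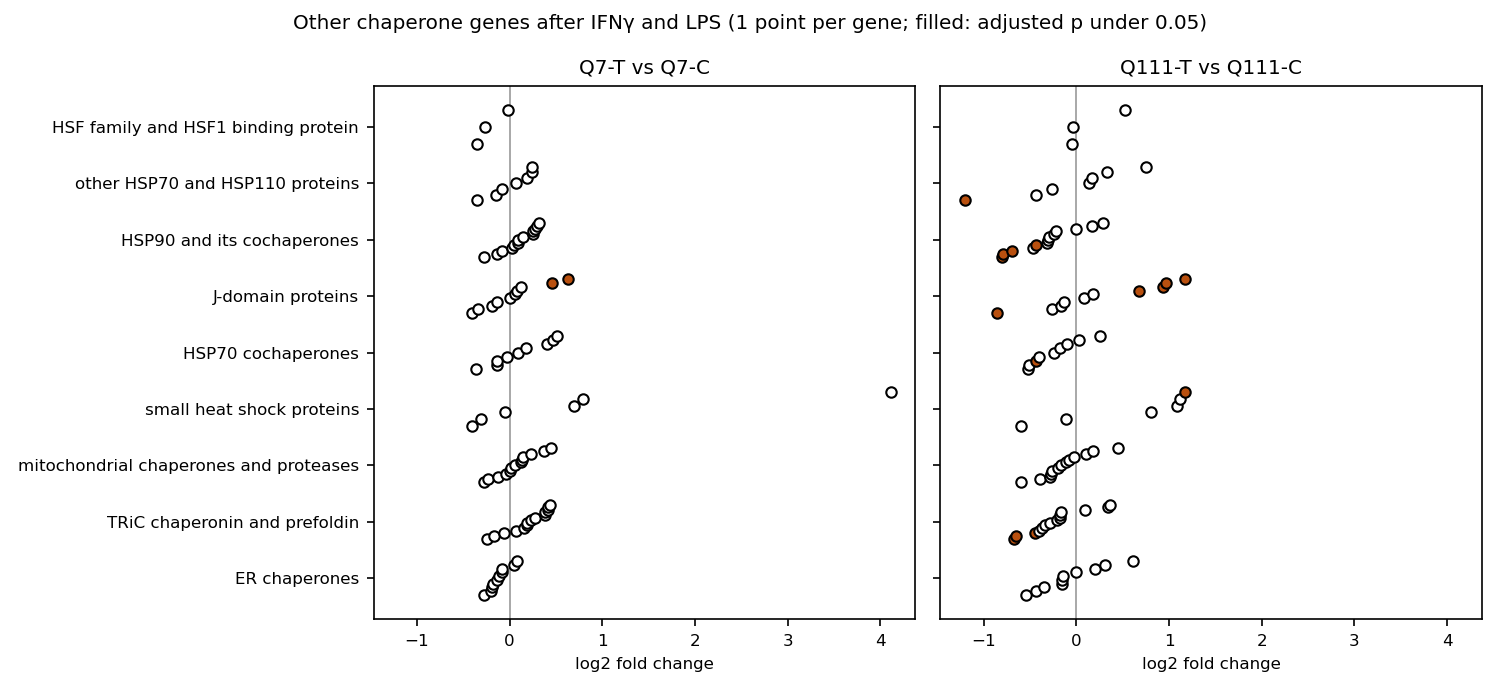
log2 fold change of 85 other chaperone genes (horizontal axes) with treatment of Q7 cells (left) and of Q111 cells (right), grouped by list, with 1 circle per gene and filled circles for an adjusted p under 0.05. In Q7 cells 2 J-domain proteins are filled, in Q111 cells 5 filled genes lie to the right of 0 and 10 to the left, and the open point at 4.11 in Q7 cells is Hspb7 (adjusted p = 0.45).

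The genes whose levels were most like those of Hspa1b and Hspd1 were found by Pearson's r of log2 CPM over the 12 libraries. For Hspa1b they were Slc39a9 (0.980), Taf1 (0.968), Irf2bpl (0.963), Ncoa4-ps (0.961) and 4931406P16Rik (0.952). For Hspd1 they were Sltm (0.987), Hnrnpu (0.982), Wdr3 (0.978), Eif4b (0.977) and Noc3l (0.976). No member and no gene of the 9 lists was among these 10. The 12 points share the 4 groups and the balance of short against long transcripts. Within groups that balance had r = -0.95 with Hspa1b, -0.97 with Hspd1, -0.98 with Hsph1 and 0.99 with Hspe1, against -0.27 with Hsf1 and -0.29 with Hspa8 (n = 12 libraries, descriptions without a test), and its part in the likeness was not tested.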

How the data were processed

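Poly(A) RNA of 12 libraries was sequenced from both ends as stranded TruSeq libraries. The authors trimmed reads with Cutadapt, aligned them by HISAT2 to the GRCm38 genome and obtained expression estimates from StringTie and Ballgown, and the submitters' processing notes also name FastQC, DESeq2 and edgeR. For each gene and library the authors deposited an estimated count, not normalized, and a TPM value, scaled for transcript length and library total. TPM sums ranged from 688352 to 719623 per library. Groups were taken from the sample labels. Estimated counts were rounded and genes kept that reached 0.5 TPM in 3 or more libraries. They were scaled by TMM and tested in one fit of all 12 libraries with edgeR's quasi-likelihood test (edgeR 4.0.16, R 4.3.3), with Benjamini-Hochberg adjustment over 16127 genes. Standard errors of log2 fold changes follow from the F statistics. The test was checked on simulated counts, with 2-fold and 4-fold changes put into Q111-T. Of 100 such 2-fold changes it found 26 between the treated lines, 29 for treatment of Q111 cells and 5 in the interaction. Of 100 4-fold changes it found 84, 85 and 54, so a difference that was not called is not shown to be absent. Alternatives were limma 3.58.1 on log2(TPM + 0.5), DESeq2 1.42.0, other filters and scalings, counts divided by 4 (1 read pair may stand for about 4 estimated counts), and leaving out libraries. No 2 replicates had like counts (smallest chi-square per degree of freedom 18.298). All members were named, with up to 2 called genes per list and direction and the relatives Hsp90ab1, Hsf2, Hspa9 and Dnaja1. Members and lists were chosen with earlier results of these data known. Promoters were searched in RefSeq windows with Python 3.11.15. Intervals cover the spread between libraries only, as reads carry no molecular identifiers.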

Additional observations from a re-analysis of the deposited data

Results flagged for a closer look

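The response to IFNγ/LPS differed between the lines, by the interaction term of edgeR's fit, for 1 member and 5 genes of the other chaperone lists. For Dnajb1 the response in Q111 cells minus that in Q7 cells was 1.03 (log2). For the J-domain proteins Dnaja4 and Dnajb4 it was 1.12 and 1.02. For the HSP90 cochaperones Ahsa1 and Fkbp4 it was -1.12 and -1.05, and for the chaperonin subunit Cct5 it was -1.08. With 1 library left out at a time, 0 of 12 fits lost the difference for Dnajb1 and Dnaja4, 7 lost it for Dnajb4, and 8 each for Ahsa1, Fkbp4 and Cct5. Groups of 3 were not tested for single libraries far from the others.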

How the results depend on the processing

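Of 1390 values under alternative settings, 1221 kept their direction and side of the threshold, 31 lost a call, 66 gained one and 72 turned in sign, with no call in either fit for the last. With all 12 libraries the members called were 1 between the nontreated lines, 5 between the treated lines, 0 with treatment of Q7 cells, 2 with treatment of Q111 cells and 1 for the interaction, in that order below. The list genes had 84 calls in the comparisons of groups together. List counts here and below leave out the interaction, which had 2 higher and 3 lower list genes with all 12 libraries. Without the 3 libraries rich in short transcripts the members had 5, 9, 1, 8 and 7 calls and the lists 157. The interaction, left out of the 157, had 7 higher and 26 lower list genes. With the balance of short and long genes as a covariate the members had 5, 8, 1, 4 and 4 and the lists 131, in both cases as alternatives added after seeing the data. DESeq2 gave 3 for the nontreated lines, and counts divided by 4 gave 2. A fit of the compared groups only gave 2, 2 and 5 for the nontreated lines, the treated lines and treatment of Q111 cells. Scaling by total counts gave 3 for the treated lines. The limma fits with a pseudocount of 0.5, 0.1 and 1 each gave 2 for the treated lines and 46, 43 and 50 for the lists, and those with 0.5 and 1 gave 1 for treatment of Q7 cells. Quantile-normalized TPM gave 2 for the treated lines and 4 for treatment of Q111 cells. Leaving out 1 library gave 1 to 3, 3 to 7, 0 to 1, 1 to 4 and 1 to 2 member calls and 61 to 101 list calls. For the nontreated lines the count was 3 without replicate 1 of Q7-C and 2 without replicate 2 of Q7-T. For the treated lines it was 3 without replicate 1 or 2 of Q111-T. Without replicate 2 of Q7-T it was 1 and 4 for treatment of Q7 and Q111 cells and 2 for the interaction, and for treatment of Q111 cells it was 1 without replicate 1 or 3 of Q111-C or replicate 1 or 2 of Q111-T. The cause of these changes was not tested.

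With the replicate number as a block, the members had 1, 5, 0, 2 and 1 calls and the lists 74. The numbers did not pair the libraries: correlations of same-numbered libraries reached from -0.582 to 0.45, and 2 of 12 libraries correlated best with their own number.

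The signs that turned belong to differences that were not called. Between the nontreated lines, the log2(TPM + 0.5), log2(TPM + 0.1) and log2(TPM + 1) scales gave 0.06, 0.06 and 0.05 for Hsf1, 0.05 each for Hspa1b, 0.13 each for Hspa8, 0.21 each for Hspd1 and 0.07 each for Hspe1. Quantile-normalized TPM gave 0.17 for Hspa8 and 0.12 for Hspd1, total counts 0.03 for Hspd1, and Hspe1 had 0.08 without the 3 libraries or without replicate 1 of Q7-C (range with 1 library left out -0.49 to 0.08) and 0.04 with the covariate. Between the treated lines these 3 scales gave 0.26, 0.27 and 0.25 for Hspa1b and 0.21, 0.21 and 0.20 for Hsph1, and the first 2 gave 0.00 and 0.01 for Hspa1a. For treatment of Q7 cells they gave -0.16 each for Hsf1 and -0.12 each for Dnajb1, total counts gave -0.10 and -0.06, and quantile-normalized TPM gave -0.04 for both, -0.06 for Hspa8 and -0.02 for Hsp90aa1. Hsf1 also had -0.02 without the 3 libraries and -0.09 with the covariate, and Hspd1 had 0.01 with the Q7 groups only, 0.08 without the 3 libraries and 0.12 with the covariate. Leaving out 1 library gave -0.17 to 0.23 for Hsf1, -0.38 to 0.14 for Hspa1a, -0.45 to 0.12 for Hspa1b, -0.16 to 0.25 for Hspd1 and -0.07 to 0.98 for Hspe1. For treatment of Q111 cells Hspb1 had -0.04, -0.04 and -0.03 on the 3 TPM scales, -0.02 on quantile-normalized TPM, -0.11 without the 3 libraries and -0.15 to 0.23 with 1 library left out, and Hspa1a had -0.08 with the counts of both copies summed. In the interaction, Hspa1b had -0.20 with the covariate and -0.33 to 0.24 with 1 library left out, and Hsp90aa1 had 0.12 on quantile-normalized TPM, 0.23 without the 3 libraries and -0.24 to 0.05 with 1 library left out.

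Each member had 832 or more estimated counts in each library, and the part of depth in differences that were not called was not tested. The limits are 3 libraries a group, 1 line a genotype, and libraries that differ in transcript length balance. The near-identical Hspa1a and Hspa1b and the pseudogenes of Hspb1, Hspd1 and Hspe1 make the split of reads uncertain.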
